A study of Mus musculus with 3 samples.

Results

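The genes described here encode 10 enzymes that carry methionine through its cycle and its sulfur on to cysteine and taurine: Mat1a, Mat2a, Gnmt, Ahcy, Bhmt, Bhmt2, Cbs, Cth, Cdo1 and Csad. They were chosen by function, with earlier results of these data known, as the probe sets whose only platform gene symbol was one of these names. Of the 10, 9 had such a probe set (11 probe sets in all), and all 9 were among the 12735 genes fitted, out of 18193 genes with a single-symbol probe set. Mat2a, the methionine adenosyltransferase of extrahepatic and proliferating cells, was not analysed here. For a gene with several probe sets, the one with the highest mean over the arrays stood for it.

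Livers of 3-month-old mice on a mixed background were collected 1 week after 1 intraperitoneal injection of 400 microL of an adeno-associated virus of serotype 8, and total RNA from each liver went on 1 array. Control mice (n = 2, called biological replicates in the labels) received the virus MUP-EGFP-AAV8, which carries a green fluorescent protein, and 1 mouse received MUP-iCre-AAV8, which carries the Cre recombinase that excises floxed DNA. The gene aimed at was Hnf4a, whose product HNF4alpha is a nuclear receptor of hepatocytes. The submitters' texts disagree on genotype: by the design text all mice were Hnf4a-floxed, but the labels give wild type for the controls and HNF4alpha knockout for the Cre mouse, so genotype and virus cannot be told apart. The Cre group is 1 mouse, and an exact permutation test of 1 against 2 cannot give a two-sided p below 0.333. Tests are therefore from limma, fitted across all genes, which assumes that Cre livers vary like the control livers.

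In liver, methionine is activated to S-adenosylmethionine (SAM), the methyl donor of the cell. Methyl transfer leaves S-adenosylhomocysteine, which is split to homocysteine. Homocysteine is either methylated back to methionine, with betaine or a folate as the methyl source, or condensed with serine and passed through transsulfuration to cysteine, from which glutathione, taurine and sulfate are made.

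The promoters of 5 of these genes are shown because they stand for the patterns reported below: Gnmt and Ahcy fell most, Bhmt and Bhmt2 are neighbouring genes of one family, and Cbs was the only gene that rose with an entry in the promoter table. Each sequence is the 250 bases before the RefSeq start of the gene in GRCm38.p6, read 5′ to 3′ on the gene's strand, which is the minus strand for all 5. The windows are chr17:46729166-46729415 for Gnmt, chr2:155074498-155074747 for Ahcy, chr13:93637759-93638008 for Bhmt, chr13:93674303-93674552 for Bhmt2 and chr17:31637206-31637455 for Cbs. Capitals mark matches to CAAAGNNCA, a pattern written to cover HNF4-type recognition sequences and searched on both strands.
Gnmt: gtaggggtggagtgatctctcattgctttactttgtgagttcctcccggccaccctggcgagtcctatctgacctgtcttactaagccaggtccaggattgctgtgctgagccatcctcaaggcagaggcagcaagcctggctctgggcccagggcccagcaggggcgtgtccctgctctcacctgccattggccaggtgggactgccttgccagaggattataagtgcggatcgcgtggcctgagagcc
Ahcy: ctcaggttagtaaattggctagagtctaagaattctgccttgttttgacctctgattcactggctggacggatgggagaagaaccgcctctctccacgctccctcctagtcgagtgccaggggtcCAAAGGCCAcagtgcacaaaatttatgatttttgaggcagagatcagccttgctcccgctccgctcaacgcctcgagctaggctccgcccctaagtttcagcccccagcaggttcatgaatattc
Bhmt: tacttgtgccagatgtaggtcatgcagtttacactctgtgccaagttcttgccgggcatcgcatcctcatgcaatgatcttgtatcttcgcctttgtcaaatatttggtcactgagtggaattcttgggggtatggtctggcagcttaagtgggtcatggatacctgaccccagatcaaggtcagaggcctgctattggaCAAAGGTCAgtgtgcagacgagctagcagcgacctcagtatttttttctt
Bhmt2: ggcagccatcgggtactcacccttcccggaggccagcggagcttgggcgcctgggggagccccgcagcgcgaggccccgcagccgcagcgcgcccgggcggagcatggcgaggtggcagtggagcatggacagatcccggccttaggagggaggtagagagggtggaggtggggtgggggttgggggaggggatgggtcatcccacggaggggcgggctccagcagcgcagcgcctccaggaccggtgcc
Cbs: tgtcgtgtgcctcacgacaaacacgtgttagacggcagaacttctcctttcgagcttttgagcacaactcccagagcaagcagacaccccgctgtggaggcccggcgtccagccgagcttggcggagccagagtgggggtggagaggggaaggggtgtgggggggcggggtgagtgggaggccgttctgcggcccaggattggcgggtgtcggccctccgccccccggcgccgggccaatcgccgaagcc

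The pattern occurred at -125 to -117 from the start of Ahcy (CAAAGGCCA) and at -50 to -42 from the start of Bhmt (CAAAGGTCA), both on the gene's own strand. It was not found in the windows of Gnmt, Bhmt2 or Cbs. Of 32851 mouse promoter windows of the same length, 5.49% held it. A match is a description of the letters and not a measured binding site. The GC content of the windows was 60.4% for Gnmt, 52.8% for Ahcy, 48.0% for Bhmt, 74.0% for Bhmt2 and 68.0% for Cbs, against a median of 52.4% over all windows.

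Of the 9 measured genes, 3 rose and 4 fell in the Cre liver, where a gene rose or fell if its limma p, adjusted by Benjamini-Hochberg over all 12735 genes, was under 0.05. Over all fitted genes, 6.71% rose and 5.21% fell. Since the 9 genes were chosen with earlier results of these data known, setting their counts beside these shares is not a test. The genes that rose were Mat1a, Cbs and Cth, at the entry of the cycle and at both steps of transsulfuration. Those that fell were Gnmt, Ahcy, Bhmt2 and Cdo1, while Bhmt and Csad did not pass. Mat1a, Gnmt and Ahcy passed at 0.05 in each of 9 alternative settings with a test, and Cbs, Cth, Bhmt2 and Cdo1 each failed to pass in at least 1. Mat1a came near the threshold, with a limma adjusted p of 0.048 without an intensity trend. The highest in any of these settings was 0.0153 for Gnmt and 0.011 for Ahcy. The median difference of the 9 genes was -0.10 on the log2 scale, beside 0.09 over all fitted genes. By size alone, 3 of the 9 lay at least 0.5 log2 units above both controls (13.7% of all genes) and 3 at least 0.5 below (8.14%). At least 1 log2 unit above both controls there were none of the 9 (3.67% of all genes), and at least 1 below there were 2, Gnmt and Ahcy (3.72%).

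**Figure D1:**
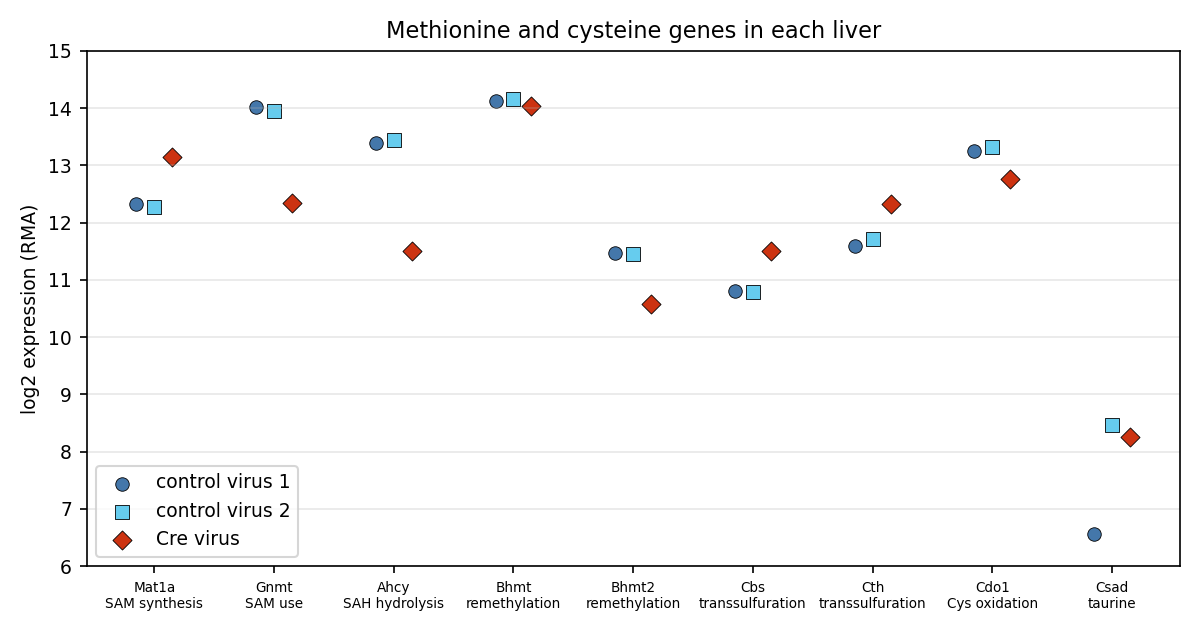
Log2 expression after robust multi-array averaging (vertical axis) of the 9 measured genes, ordered by their step in the pathway, with 1 point per liver. For Csad the control livers are at 6.55 and 8.47 and the Cre liver lies between them at 8.25. Levels are comparable between livers for 1 gene, not between genes.

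Mat1a encodes the liver's own methionine adenosyltransferase, which makes SAM and is a marker of mature hepatocytes. On the log2 expression scale it was at 12.33 and 12.26 in the control livers, against 13.15 after the Cre virus. The Cre value lay above both controls, which were 0.07 apart. The difference was 0.85 ± 0.09 (SE), a 1.81-fold rise, with a limma adjusted p of 0.0155. Only 1 probe set read the gene.

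Gnmt and Ahcy act directly after SAM is made, and both fell by more than any other gene of the 9. Gnmt encodes glycine N-methyltransferase, an abundant hepatocyte enzyme that uses up excess SAM by methylating glycine to sarcosine. Its controls were at 14.02 and 13.95 and its Cre value was 12.33, at least 1 log2 unit below both (3.72% of all fitted genes). That is a 3.15-fold fall (-1.65 ± 0.09 SE, limma adjusted p = 0.00287). Ahcy encodes the hydrolase that splits S-adenosylhomocysteine, the product of methyl transfer and an inhibitor of methyltransferases, into homocysteine and adenosine. Its control values, 13.39 and 13.44, compared with 11.51 in the Cre liver, again with a gap many times that between the controls. The fall was 3.76-fold (-1.91 ± 0.09 SE, limma adjusted p = 0.00226), and 1.86% of fitted genes had a difference as low or lower.

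Of the neighbouring methyltransferase genes that remethylate homocysteine, Bhmt2 fell and Bhmt did not pass. Bhmt encodes betaine-homocysteine methyltransferase, among the most abundant enzymes of the liver cytosol, and Bhmt2 a relative that uses S-methylmethionine. Control values of Bhmt were 14.13 and 14.15, and the Cre value was 14.04, just below both. Its difference was -0.10 ± 0.08 SE with a 95% interval from -0.31 to 0.11 (limma adjusted p = 0.428). Its signal, like that of Gnmt in the controls, lay near the highest value of any probe set (15.05), where an array can understate a difference; that was not tested for either gene. For Bhmt2 the controls read 11.47 (control 1) and 11.45 (control 2), and the Cre liver was well below both at 10.57. It fell 1.85-fold (-0.89 ± 0.10 SE, limma adjusted p = 0.0164). A second Bhmt2 probe set, 1418913_at, was lower too, at 9.31 and 9.21 against 8.56 (-0.70 ± 0.13 SE), and did not pass over 31526 probe sets (limma adjusted p = 0.0739). The probe set that stood for Bhmt2, 1418914_s_at, has a suffix given to sets that can read more than 1 transcript. Whether Bhmt and Bhmt2 differed from each other in their response was not tested.

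In RefSeq gene order Bhmt and Bhmt2 are followed on chromosome 13 by Dmgdh, the dimethylglycine dehydrogenase that takes over the product of the Bhmt reaction. Dmgdh had control values of 11.32 and 11.41 and a Cre value of 11.15, a difference of -0.21 ± 0.10 SE that did not pass (limma adjusted p = 0.253). Of these 3 consecutive genes, Bhmt2 alone passed the threshold.

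**Figure D2:**
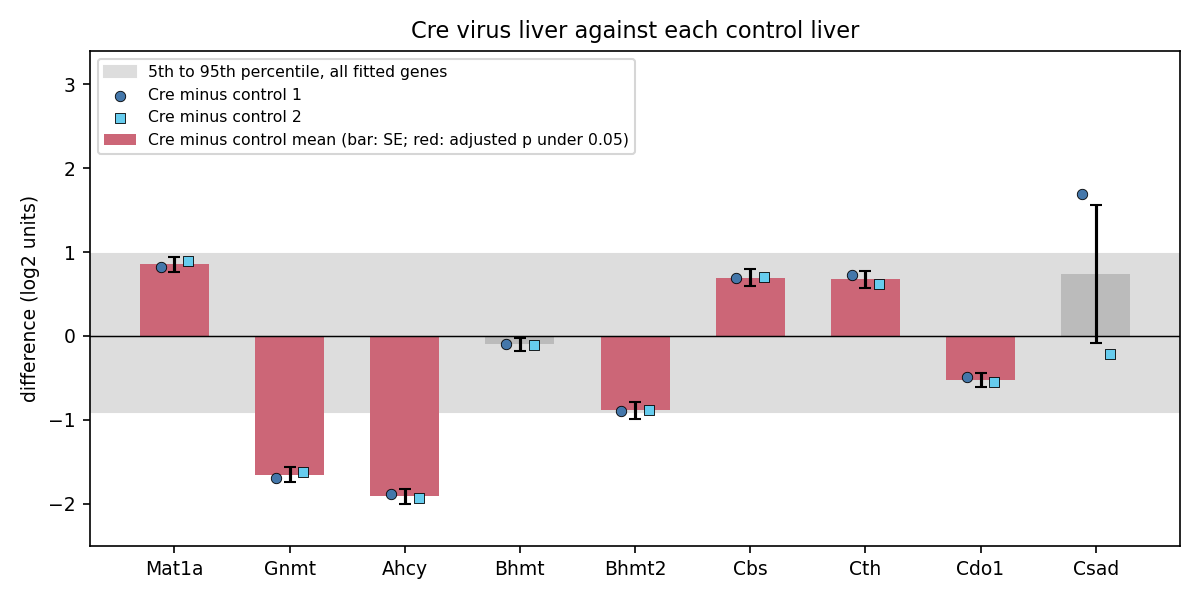
Difference between the Cre liver and the control mean in log2 units (bars, with limma's SE; red for an adjusted p under 0.05, grey otherwise), and between the Cre liver and each control liver (points). The grey band spans the 5th to 95th percentile of all fitted genes (-0.90 to 0.98): Gnmt and Ahcy lie below it, and the points for Csad fall on opposite sides of 0.

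Both genes of transsulfuration rose, by like amounts. Cbs encodes cystathionine beta-synthase, which commits homocysteine to cysteine synthesis and is activated by SAM. The Cre value, 11.50, was above both controls (10.81 and 10.80). The rise was 1.62-fold (0.70 ± 0.10 SE, limma adjusted p = 0.0275). The other Cbs probe set, 1425623_a_at, went from 8.93 and 8.96 to 9.49, a difference of 0.54 ± 0.12 SE that did not pass over all probe sets (limma adjusted p = 0.0982). Cth encodes cystathionine gamma-lyase, which releases cysteine from cystathionine and can produce hydrogen sulfide. Its controls were at 11.60 and 11.71 and its Cre value was 12.33, at least 0.5 log2 units above both (13.7% of all fitted genes). The rise was 1.60-fold (0.68 ± 0.10 SE, limma adjusted p = 0.0314). For neither gene does the call hold in all settings: without an intensity trend in the moderation the limma adjusted p was 0.0662 for Cbs and 0.0767 for Cth.

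Below cysteine, the genes of taurine synthesis gave a small fall and an undetermined value. Cdo1 encodes cysteine dioxygenase, which oxidises cysteine to its sulfinic acid. Its Cre value of 12.76 was below both controls, 13.25 and 13.31. The difference was -0.52 ± 0.09 SE, a 1.44-fold fall, with a limma adjusted p of 0.0369 that rose to 0.108 without the intensity trend. Csad encodes the decarboxylase that turns the sulfinic acid into hypotaurine, the precursor of taurine. It was at 6.55 in control 1, 8.47 in control 2 and 8.25 in the Cre liver, so the Cre value lay between the controls. The difference from the control mean, 0.74 ± 0.82 SE (limma adjusted p = 0.582), had a 95% interval from -1.50 to 2.98, and it was 1.70 against control 1 and -0.22 against control 2. No direction can be given for Csad.

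The 2 controls differed by 1.91 log2 units in Csad, a gap larger than in 99.88% of fitted genes. Controls at least 1 log2 unit apart made up 0.644% of all genes, and Csad was the only one of the 9 among them. In the other 8 genes the controls were between 0.02 and 0.11 apart, against a median of 0.15 over all fitted genes.

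**Figure D3:**
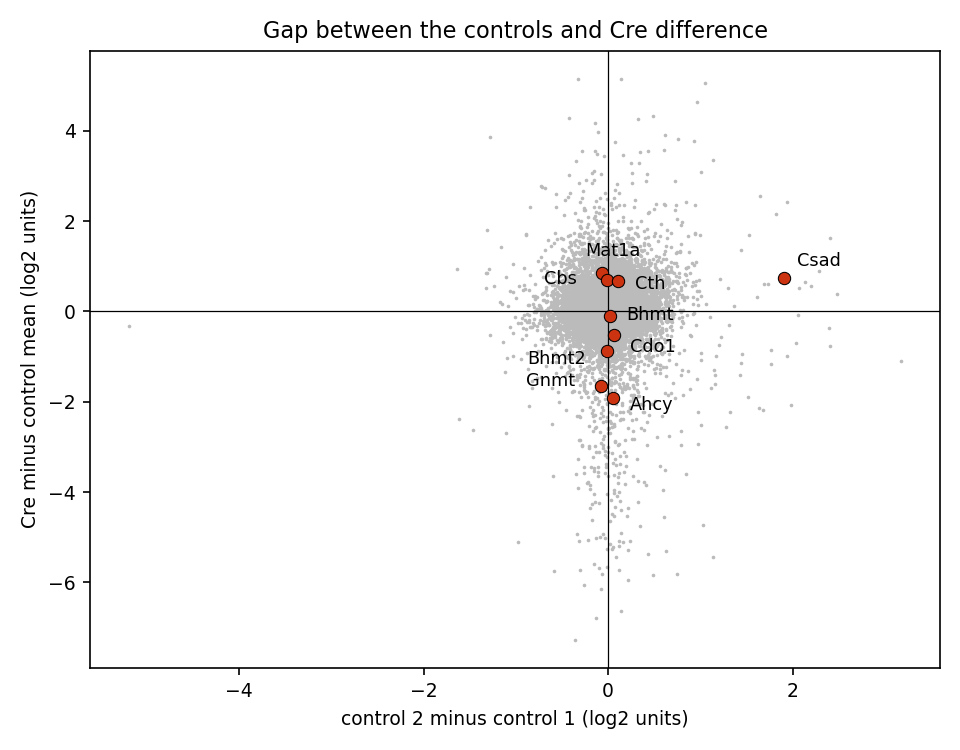
Gap between the 2 control livers (horizontal axis, log2 units) against the difference of the Cre liver from the control mean (vertical axis, log2 units) for each of the 12735 fitted genes (grey) and the 9 measured genes of the pathway (red, named). Of the 9, 8 lie close to a control gap of 0, and Csad lies at 1.91.

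The 4 probe sets for Hnf4a had lower values with Cre than in either control, with differences between -1.18 and -0.55; the probe set that stood for it fell by 0.55 (± 0.10 SE, limma adjusted p = 0.0401). Tested over 31526 probe sets instead, that probe set did not pass (limma adjusted p = 0.0644), nor did those of Cth (0.0539) and Cdo1 (0.0588); of the 4 for Hnf4a, only 1421983_s_at did (0.0364). Where these probes lie relative to the floxed exons was not analysed here. The median value per array was 4.15 to 4.18. The hepatocyte markers Alb, Ttr, Apoa1, Fgb and Hpx (5 of 7 listed were on the array) averaged 14.16 in control 1, 14.20 in control 2 and 14.05 in the Cre liver, with Hpx alone past the threshold (-0.71). All 8 Kupffer cell and macrophage markers were above their control means, by 0.09 to 1.88, beside a median of 0.09 over all fitted genes. Csf1r, at 8.78 in the Cre liver, lay between control 1 (8.38) and control 2 (8.85). The 8 averaged 6.47 and 6.87 against 7.39, and only Marco, a scavenger receptor gene, rose. Among other markers fitted, 0 of 8 for stellate cells, 0 of 6 for endothelial cells and 0 of 4 for lymphocytes and neutrophils passed. For cholangiocytes 1 of 3 did, Sox9 (2.35). Its controls were well apart, with Sox9 at 3.87 in control 1, 4.82 in control 2 and 6.69 in the Cre liver. The cholangiocyte keratin Krt19 was at 3.59 to 3.79 in all livers. Differences between the 3′ and 5′ control probe sets, a sign of RNA quality, were 0.45, 0.82 and 1.04 for Gapdh and 1.71, 2.06 and 2.39 for Actb in control 1, control 2 and the Cre liver, highest in the Cre liver for both. The part of other cells and of RNA quality in the results was not tested, and in whole liver fewer hepatocytes and less RNA per hepatocyte cannot be told apart.

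The partner genes of the pathway were read from 6 lists of 86 genes in all. On the array were 77 of them and 73 were fitted. Of the 73, 10 rose and 19 fell, 13.7% and 26.0%, beside 6.71% and 5.21% of all fitted genes. The lists were chosen with earlier results of these data known, so setting these shares side by side is not a test. The median difference of the 73 genes was -0.02. The values given for them are differences on the log2 scale with SE, and calls are limma's at an adjusted p under 0.05. The 29 calls were checked at an adjusted p under 0.05 in the 9 alternative settings with a test. Of them, 20 passed in each of these settings in which the gene was fitted. The other 9 did not pass in at least 1: Aldh7a1, Enoph1, Lap3, Mmadhc, Mpst, Nnmt, Papss1, Papss2 and Slc44a1. A stricter threshold, at which fewer list genes were called, and the fit over all probe sets were not among these settings.

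Genes that supply and use folate one-carbon units, and the accessory genes of the methionine cycle, made up a list of 18 fitted genes. In it 2 were higher (11.1%, beside 6.71% of all fitted genes), 4 were lower (22.2%, beside 5.21%) and 12 did not pass. The serine hydroxymethyltransferases, which move a carbon from serine to folate, fell in both compartments. Mitochondrial Shmt2 fell by 3.36 (± 0.13 SE) and cytosolic Shmt1 by 1.11 (± 0.11 SE). The other probe sets of Shmt2 were between -2.57 and -0.56 and those of Shmt1 between -1.48 and -1.36. Ftcd, which feeds the histidine carbon into folate, fell by 2.53 (± 0.14 SE), and Aldh1l1, which burns off formyl groups, by 1.11 (± 0.09 SE). Ggh, which trims folate polyglutamates, rose (1.18 ± 0.13 SE), as did the cobalamin-handling gene Mmadhc (0.75 ± 0.12 SE). Mtr, the folate-dependent methionine synthase, was at 0.18 ± 0.20 SE, Mtrr, which reactivates it, at 0.82 ± 0.27 SE, and Mat2b, the regulatory partner of Mat2a, at -0.06 ± 0.14 SE; none of the 3 passed.

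The route that provides betaine and disposes of its methyl groups had 7 fitted genes. Of these, 1 was higher (14.3%, beside 6.71% of all fitted genes) and 3 were lower (42.9%, beside 5.21%). Sardh, sarcosine dehydrogenase, which oxidises the product of the Gnmt reaction, fell by 3.44 (± 0.12 SE), and its other probe set was at -4.01. Pipox, which also oxidises sarcosine, fell by 1.98 (± 0.11 SE). Gnmt, which makes sarcosine, and Sardh and Pipox, which oxidise it, were thus lower in the Cre liver. Dmgdh, of the same list, also makes sarcosine, from dimethylglycine, and did not pass (-0.21 ± 0.10 SE). Aldh7a1, which oxidises betaine aldehyde among other substrates, fell by 0.55 (± 0.10 SE, limma adjusted p = 0.0432), a call lost in 4 other settings, with an adjusted p of up to 0.113. Chdh, the choline dehydrogenase that starts the route, was at 0.19 ± 0.11 SE without passing, and the choline transporter Slc44a1 rose (1.10 ± 0.21 SE, limma adjusted p = 0.047) but did not pass in the same 4 settings (adjusted p up to 0.14).

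Of 11 methyltransferases that use SAM, most on small molecules, 4 fell (36.4%, beside 5.21% of all fitted genes) and 1 rose (9.09%, beside 6.71%). Icmt and Pcmt1 in this list act on proteins, and neither passed. Tpmt, which methylates thiopurines, fell by 3.59 (± 0.19 SE), with its other probe sets between -2.29 and -1.20. Mettl7b fell by 2.27 (± 0.10 SE), and Gamt, the last enzyme of creatine synthesis, by 1.40 (± 0.13 SE). Nnmt, which methylates nicotinamide, read 10.01 and 8.90 in control livers but 6.76 after the Cre virus. It fell by 2.70 (± 0.49 SE, limma adjusted p = 0.0437), although its controls were 1.11 apart, and did not pass without the intensity trend (0.0596) or without the filter (0.0771). Hnmt, which inactivates histamine, rose (1.06 ± 0.14 SE). Pemt, which makes phosphatidylcholine and is a large consumer of hepatic SAM, was at 0.17 ± 0.17 SE and did not pass.

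Polyamine synthesis and methionine salvage had 1 gene of 10 higher (10%, beside 6.71% of all fitted genes) and none lower (beside 5.21%). Enoph1, of the salvage route, rose (0.99 ± 0.18 SE, limma adjusted p = 0.0467), and Mtap, which opens that route, was at 0.53 ± 0.14 SE without passing. The other Enoph1 probe set, below the filter on dim genes, was at -0.12. Without a filter, with a gene's probe sets averaged or without mixed probe sets, the list had no gene called higher.

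Of 14 genes of cysteine, taurine and sulfide metabolism, 5 fell (35.7%, beside 5.21% of all fitted genes) and 3 rose (21.4%, beside 6.71%). The largest fall was that of Sult1a1, a phenol sulfotransferase (-4.63 ± 0.13 SE). Ethe1, the mitochondrial persulfide dioxygenase of sulfide disposal, fell by 3.02 (± 0.14 SE). The aspartate aminotransferases Got1 (-1.73 ± 0.15 SE) and Got2 (-1.17 ± 0.10 SE), which also transaminate cysteine sulfinate, fell, as did Mpst, a mercaptopyruvate sulfurtransferase (-1.28 ± 0.20 SE). Fmo1, which can oxidise hypotaurine to taurine, rose (1.10 ± 0.14 SE). Papss1 (0.91 ± 0.14 SE) and Papss2 (0.70 ± 0.11 SE), which make the sulfate donor of sulfotransferases, rose as well. Among genes that did not pass were Ado, a thiol dioxygenase (0.73 ± 0.15 SE, limma adjusted p = 0.0581), and the sulfide-oxidising Sqor (-0.13 ± 0.12 SE).

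Glutathione genes went both ways, with 2 of 13 higher (15.4%, beside 6.71% of all fitted genes) and 3 lower (23.1%, beside 5.21%). Gclm, the modifier subunit of the enzyme that joins cysteine to glutamate, fell by 0.83 (± 0.11 SE), and its other probe set was at -0.88. Its catalytic partner Gclc was at 0.25 ± 0.10 SE and did not pass. Anpep (2.00 ± 0.16 SE), a peptidase that can release amino acids from glutathione breakdown products, and Oplah (1.62 ± 0.13 SE), the oxoprolinase of the same route, rose. The peptidase gene Lap3 fell by 1.02 (± 0.15 SE) and Ggt6, of the gamma-glutamyltransferase family, by 1.22 (± 0.17 SE).

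**Figure D4:**
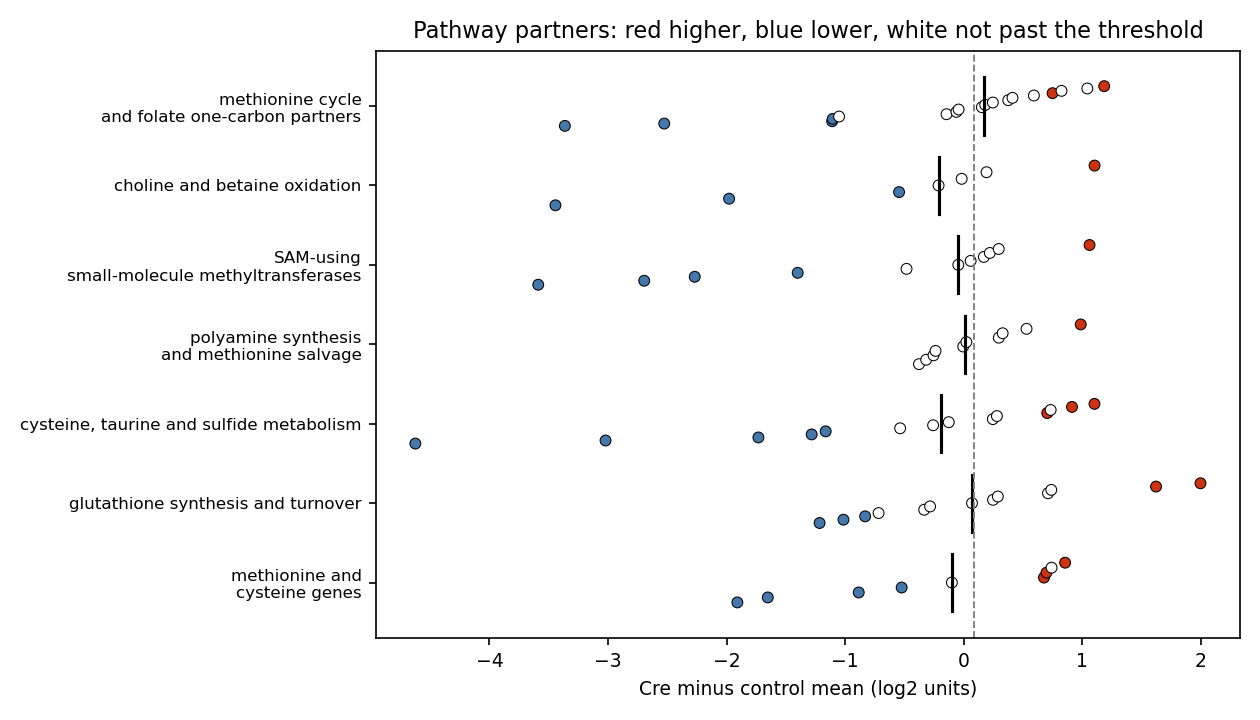
Difference between the Cre liver and the control mean (log2 units) for each fitted gene of the 6 partner lists and of the 9 measured methionine and cysteine genes, with 1 point per gene; red rose, blue fell and white did not pass the limma threshold. Thick lines are list medians and the dashed line is the median of all fitted genes (0.09); list medians lie between -0.21 and 0.17, with single genes spread from -4.63 to 2.00.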

How the data were processed

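The authors deposited log2 values for each probe set; the submitters' processing notes name Partek 6.5 and RMA. RMA subtracts background, gives the arrays the same distribution of probe intensities and then summarises the probes of a set. A shift shared by all genes is therefore hidden, and differences at low signal are compressed. The summarised values need not share a distribution, and their medians per array were 4.15 to 4.18. Base 2 was inferred from the range of the deposited values (1.59 to 15.05).

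Of 45101 probe sets, 34945 listed 1 gene in the platform annotation. For 34741 of these the Entrez ID was found in a GRCm38.p6 gene table, and the symbol given there was used, whether or not it differed. Genes whose mean over the 3 arrays reached the 30th percentile (3.77) were fitted with limma 3.58.1 in R 4.3.3 (lmFit, eBayes with trend). There was 1 residual degree of freedom, from the controls, to which moderation added 3.18. An unadjusted p under 0.05 was found for 3977 genes. The number of arrays limits the precision.

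Members and lists were chosen with earlier results of these data known. All measured members were named, and of each list at most 4 genes past the threshold by size, or the 2 largest where fewer than 2 passed. Other list genes (Aldh1l1, Mmadhc, Hnmt, Got2, Fmo1, Papss1, Papss2, Gclm and those given without passing) were named after their values were seen. Promoter sequences are from RefSeq (GRCm38.p6), with entries for 7 of the 10 genes. Plots used matplotlib 3.10.9 (Python 3.11.15).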

Additional observations from a re-analysis of the deposited data

How the results depend on the processing

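Gnmt, Ahcy and Mat1a kept their direction and passed under all 9 alternatives with a test, with differences of -1.69 to -1.60, -1.94 to -1.88 and 0.82 to 0.89. Bhmt2 did not pass without mixed probe sets (adjusted p = 0.0557) or on 1418913_at alone (0.0739). Cbs did not pass without the trend (0.0662) or on 1425623_a_at alone (0.0982), Cth without the trend (0.0767) or the filter (0.056), and Cdo1 without the trend (0.108), the filter (0.0672) or mixed probe sets (0.0607). Csad was at -0.22 without control 1 and 1.70 without control 2, which alone put 1 gene of the 9 at least 1 log2 above, against 0 otherwise. Leaving out a control leaves no residual degree of freedom, so those values have no test, and counts of calls could not be had.

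Of the 9 genes, 1 rose without the trend (against 3), 2 fell without mixed probe sets (against 4), and 0 rose and 2 fell at an adjusted p under 0.01. Over all genes, 446 rose without a filter, 471 without mixed probe sets, 92 at 0.01 and 1780 at 0.1, and 995 fell after quantile normalization, 255 at 0.01 and 1003 at 0.1; the median of all genes was 0.02 after quantile normalization and 0.10 after median centring. Among the lists, calls of higher genes in folate partners numbered 1 without trend, without filter or without mixed probe sets, 0 at 0.01 and 4 at 0.1. Betaine oxidation had 0 without trend, without filter, with averaged or without mixed probe sets, and at 0.01. Methyltransferases had 0 without mixed probe sets and at 0.01, where 2 were lower. Polyamine genes had 0 without trend, without filter, with averaged or without mixed probe sets and at 0.01, and 2 at 0.1. Cysteine genes had 1 without filter and 0 at 0.01. Glutathione genes had 1 without mixed probe sets, and 0 lower at 0.01. The cause of these shifts was not tested. No paired analysis was possible because the labels give no pairing of the Cre mouse with a control mouse.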
